A study of Mus musculus with 51 samples.

Results

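Cell junctions of the hepatocyte were followed here through the RNA of 10 genes, chosen by name from the 33773 gene rows of an expression matrix. They are the claudins Cldn1, Cldn2 and Cldn3, the tight junction membrane proteins Ocln (occludin) and F11r (junctional adhesion molecule A), the scaffolds Tjp1 (zonula occludens protein) and Cgn (cingulin), the adherens junction protein Cdh1 (E-cadherin), and the connexins Gjb1 and Gjb2. All 10 rows were found, and all 10 met the minimum level for testing in hepatocytes and in liver. In liver, Cldn1 and Cldn2 met it only through the control libraries, where they were high.

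Hepatocytes are polarised epithelial cells. Tight junctions, built from claudins, occludin and junctional adhesion molecules and anchored to actin by scaffolds such as Tjp1 and Cgn, seal the bile canaliculus between neighbouring cells. E-cadherin holds neighbouring cells together in adherens junctions, and connexins form the channels of gap junctions, through which small molecules and ions pass between hepatocytes. HNF4a is a transcription factor known for its part in the epithelial character of liver cells, and the FoxA proteins are transcription factors of the same cells.

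The study removed the FoxA genes from adult mouse liver cells and measured RNA by sequencing in 6 groups. In the triple null (4 libraries), mice with floxed Foxa1 and Foxa2 that also lack Foxa3 (FoxA3-/-) received, at 8 weeks of age, an adeno-associated virus (AAV8) with Cre recombinase under the hepatocyte-specific Tbg promoter. Their controls, labelled FoxA3 null (4 libraries), have the same alleles, so they lack Foxa3 as well, and received a virus with GFP. FoxA1/A2 lox libraries (3) come from animals with the floxed alleles, and FoxA1/A2 Cre alfp libraries (4) are labelled for a Cre that the labels do not describe further; both kept Foxa3 RNA. A separate set, labelled as liver although the extraction text speaks of hepatocytes throughout, holds 2 HNF4a control libraries and 4 libraries labelled HNF4a null, with depletion in the adult. The labels give no ages for the groups other than the triple null and do not say whether animals were pooled.

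Levels are the authors' RPKM, read counts divided by gene length and library size, so levels may be set side by side between genes. Differences are on the log2(RPKM + 1) scale, which understates the change of low genes, and a gene passed when its limma p-value, adjusted over all tested genes by the Benjamini-Hochberg method, was under 0.05. Absolute depth is unknown; depth relative to the shallowest library was 2.01 to 4.07 in hepatocytes and 1.00 to 1.1 in liver, so low liver values are the least precise. The labels were checked against the targeted genes. Foxa2 averaged 0.366 RPKM in the triple null against 13.7 in FoxA3 null and 1.09 in Cre alfp against 12.5 in lox, while Foxa1 remained at 3.28 against 8.5 RPKM in the triple null. Hnf4a went against its label, at 126 and 118 RPKM in the controls but 487 to 545 RPKM in the group called null, so directions for that group are those of the label. Hepatocyte markers summed to 27832 to 35584 RPKM in the triple null and 45019 to 56809 RPKM in the other hepatocyte libraries, and to 29204 and 29276 RPKM in HNF4a control against 17604 to 22344 RPKM in the null-labelled group. Alb (albumin) carried most of both gaps, at means of 12268 against 28111 RPKM in triple null and FoxA3 null and 6484 against 16299 in null-labelled and control liver. The single markers went both ways. In triple null against FoxA3 null 2 were higher and 6 lower of 9, beside 17.4% of all tested genes higher and 12.3% lower. Of these, 1 higher and 5 lower passed in the fit with no minimum level, where Alb did not (limma adjusted p 0.093). In the null-labelled group 2 were higher and 3 lower of 9, beside 41.1% and 11.7% of all tested genes. With no minimum level 1 of these higher and 2 of these lower markers passed. The part of the hepatocyte markers in the junction gene values was not tested.

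The promoters shown are those of the 3 members that fell most in the libraries labelled HNF4a null, and the 1 member promoter with a match to the searched HNF4 motif. They come from RefSeq on build GRCm38.p6, each running from 250 bases before to 50 bases after an annotated start, 5′ to 3′ on the gene's strand. Used here were 13 promoters for 9 of the 10 genes, with several starts for Gjb1 and Ocln, while Cdh1 had no entry. Any member entry on an excluded chromosome was left out, whereas shares over all promoters cover every chromosome. Capitals mark motif matches. The regions are chr16:26371790-26372089 on the minus strand for Cldn1, chrX:139800558-139800857 on the plus strand for Cldn2, chr14:57104653-57104952 on the minus strand for Gjb2 and chrX:101376985-101377284 on the plus strand for Gjb1.
Cldn1: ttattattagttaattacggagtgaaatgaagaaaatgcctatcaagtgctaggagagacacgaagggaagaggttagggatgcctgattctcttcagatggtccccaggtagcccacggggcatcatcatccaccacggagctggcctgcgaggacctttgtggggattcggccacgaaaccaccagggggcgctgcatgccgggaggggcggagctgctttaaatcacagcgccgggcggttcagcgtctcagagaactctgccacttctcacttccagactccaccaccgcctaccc
Cldn2: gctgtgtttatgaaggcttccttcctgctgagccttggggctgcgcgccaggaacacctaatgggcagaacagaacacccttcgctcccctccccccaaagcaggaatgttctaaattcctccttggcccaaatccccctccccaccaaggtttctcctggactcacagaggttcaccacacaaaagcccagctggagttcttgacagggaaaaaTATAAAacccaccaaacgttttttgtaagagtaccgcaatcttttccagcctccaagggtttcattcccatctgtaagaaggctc
Gjb2: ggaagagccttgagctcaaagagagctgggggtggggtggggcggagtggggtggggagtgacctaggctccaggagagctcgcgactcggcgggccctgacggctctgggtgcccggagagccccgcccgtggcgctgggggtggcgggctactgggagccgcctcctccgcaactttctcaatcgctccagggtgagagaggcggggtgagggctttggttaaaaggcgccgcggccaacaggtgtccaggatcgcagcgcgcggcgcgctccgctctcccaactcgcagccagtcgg
Gjb1: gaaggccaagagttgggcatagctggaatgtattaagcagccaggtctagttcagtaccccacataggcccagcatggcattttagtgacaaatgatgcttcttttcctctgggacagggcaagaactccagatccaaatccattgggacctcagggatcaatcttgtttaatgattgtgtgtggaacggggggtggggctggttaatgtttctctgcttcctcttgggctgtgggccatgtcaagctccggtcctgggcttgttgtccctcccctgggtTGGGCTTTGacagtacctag

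Both strands of each promoter were searched for CAAAGNNCA (an HNF4 motif), TGTTTNC (a forkhead motif, the family of FoxA) and TATAAA, the core letters of a promoter element that positions transcription, which do not overlap in any member. The first was present in 1 of the 9 genes, in the Gjb1 promoter shown, as CAAAGCCCA on the minus strand starting at position 31 after the start; 6.36% of all 32851 promoters hold it. The forkhead letters were in none of the members' promoters and in 20.5% of all. TATAAA was in Cldn2 at position -35 and in another Gjb1 promoter, and in 13.6% of all promoters. The promoters of Gjb2 and Cldn1 were 70% and 56% G or C, that of Cldn2 51.3%, against a median of 52.7% over all promoters. These are letters in a window and say nothing of binding.

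**Figure D1:**
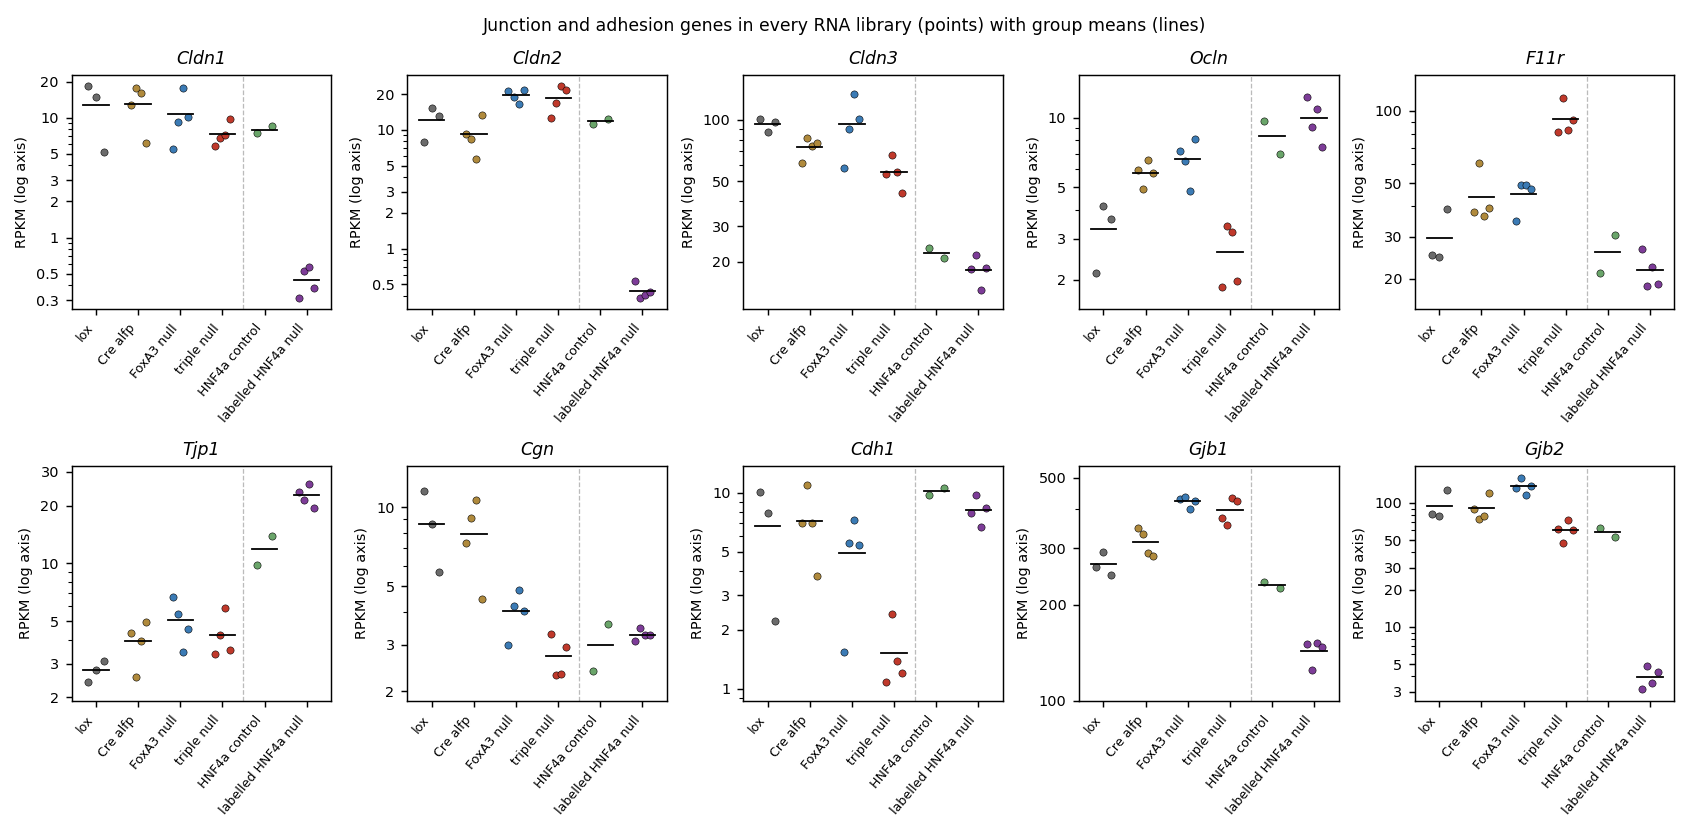
RPKM of the 10 genes on log axes in every library (points, coloured by group) with the group mean (line); the dashed line parts hepatocyte from liver libraries. Cldn1, Cldn2 and Gjb2 are low in all 4 libraries labelled HNF4a null, and F11r is high in the triple null. Mean Ocln and Cdh1 are lowest in the triple null, where Ocln overlaps with lox and Cdh1 with FoxA3 null and lox.

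The first comparison, triple null against FoxA3 null, asks what follows the loss of Foxa1 and Foxa2 in hepatocytes that already lack Foxa3. Ocln, Gjb2 and Cldn3 fell, by 2.54, 2.25 and 1.73 times in mean RPKM, and F11r rose 2.05 times. Thus 4 of the 10 genes passed, 1 higher and 3 lower, where 29.7% of all 11500 tested genes passed; at least 2-fold on the log2 scale were 3 of them, against 8.11% of all genes. The members' median log2 difference was -0.41, beside 0.05 over all tested genes. The other 6 genes did not pass.

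Among tight junction genes, Ocln was 7.15, 6.5, 4.83 and 8.09 RPKM in FoxA3 null and 1.86, 3.42, 3.21 and 1.98 RPKM in the triple null. Every triple null library lay below every FoxA3 null library (log2 difference -1.09, SE 0.19, limma adjusted p 0.000744). Occludin is the membrane protein after which the tight junction belt is often stained. F11r moved the other way, from 34.7, 49.3, 49 and 47.2 RPKM to 81.8, 113, 83.1 and 91.7 RPKM. Here too the groups did not overlap, with the FoxA3 null library at 34.7 RPKM below its group and the log2 difference at 1.02 (SE 0.19, limma adjusted p 0.00116). F11r encodes an immunoglobulin-like protein that leukocytes and endothelium carry as well as epithelium; in the same libraries, neutrophil markers summed to 9.44 to 111 RPKM in the triple null and 0.834 to 1.86 in FoxA3 null, and endothelial markers to 8.53 to 17.7 and 32.5 to 50.8. The neutrophil sum was mostly S100a8 (3.93 to 91.3 RPKM in the triple null) and S100a9 (3.53 to 17.3), the 2 of 7 listed genes that were tested, while Ly6g was at 0 in every library of all groups. Of the other untested ones, Csf3r was 0.31 to 0.834 RPKM in the triple null and 0.0525 to 0.301 in FoxA3 null, without overlap. Retnlg was 0.0809 to 1.45 and 0 to 0.0944 RPKM, Mpo 0 to 0.258 and 0, and Elane 0.0452 to 0.273 and 0 to 0.0528. The part of these cells in the F11r difference was not tested. In these bulk samples, fewer cells of a type and less RNA per cell cannot be told apart.

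Cldn3, the highest in RPKM of the 3 claudins followed here in every group, was 57.9, 90, 134 and 101 RPKM in FoxA3 null and 54.3, 67.1, 55.5 and 43.8 RPKM in the triple null. The FoxA3 null library at 57.9 lay within the range of the triple null, so the groups overlapped, although the log2 difference of -0.74 passed (SE 0.20, limma adjusted p 0.0145). Without triple null replicate 4, the lowest of its group, the difference was -0.63 and did not pass (limma adjusted p 0.0502; 0.000821 to 0.0502 over all alternatives). Cldn1, a sealing claudin, ranged over 5.49 to 17.8 RPKM in FoxA3 null and 5.77 to 9.67 in the triple null (log2 difference -0.40, 95% interval -1.23 to 0.44). Cldn2, a claudin that forms channels for small cations and water, ranged over 16.4 to 21.6 and 12.7 to 23.4 RPKM (-0.10, -0.62 to 0.42). Neither passed, and both pairs of ranges overlapped.

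The scaffold genes did not pass either. Tjp1 ranged over 3.45 to 6.69 RPKM in FoxA3 null and 3.39 to 5.85 in the triple null (log2 difference -0.20, 95% interval -0.62 to 0.22). Cgn ranged over 2.98 to 4.85 and 2.3 to 3.3 RPKM (-0.43, -0.92 to 0.06), and the authors' deposited table, from a test of their own, lists it at -0.58 with an adjusted p of 0.015. For the adherens junction, Cdh1 was 1.54, 5.58, 7.3 and 5.44 RPKM in FoxA3 null and 1.09, 2.42, 1.38 and 1.21 RPKM in the triple null. Of the FoxA3 null libraries, 3 lay above all of the triple null and replicate 1 lay among them. The log2 difference of -1.14 (SE 0.42) did not pass at a limma adjusted p of 0.0524. Without FoxA3 null replicate 1 it was -1.51 and passed (limma adjusted p 0.0111), and over all alternatives the adjusted p ran from 0.0111 to 0.128. The authors' deposited table lists Cdh1 at -1.77 with an adjusted p of 0.00166.

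The connexins parted from each other. Gjb2 was 131, 159, 116 and 137 RPKM in FoxA3 null and 61.5, 47.4, 72.9 and 60.2 RPKM in the triple null. All 4 triple null libraries were lower than all FoxA3 null libraries (log2 difference -1.16, SE 0.19, limma adjusted p 0.000392). Gjb1, the more abundant connexin, was 398 to 436 RPKM in FoxA3 null and 355 to 432 RPKM in the triple null, which overlap, at a log2 difference of -0.09 (95% interval -0.31 to 0.12). Gjb2 therefore made up 22.6 to 26.7% of the summed RPKM of Gjb1 and Gjb2 in FoxA3 null and 11.8 to 14.4% in the triple null. That share did not overlap between the 2 groups.

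Cre alfp against lox asks for the effect of the Foxa1 and Foxa2 deletion with Foxa3 present. None of the 10 genes passed in limma, while 5.46% of all genes did and 2.38% did so at 2-fold or more. Ocln came nearest, at 2.13, 4.15 and 3.64 RPKM in lox and 5.94, 4.93, 6.56 and 5.77 RPKM in Cre alfp. These groups did not overlap, but the log2 difference of 0.69 (SE 0.21) had a limma adjusted p of 0.0739. F11r was 25.1, 24.7 and 39 RPKM in lox and 38.1, 60.5, 36.5 and 39.3 in Cre alfp, a log2 difference of 0.55 (95% interval 0.10 to 0.99, limma adjusted p 0.157). Cldn3 was lower in every Cre alfp library (61.2 to 81.7 RPKM) than in any lox library (87.2 to 101), without passing (log2 difference -0.37, limma adjusted p 0.413). At an unadjusted p under 0.05 were 2 genes, Ocln and F11r, whose 95% intervals lay above 0; those of the other 8 included 0.

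Gjb2 was 80.6, 78.3 and 126 RPKM in lox and 88.7, 74.6, 78 and 121 in Cre alfp, which overlap (log2 difference -0.06, 95% interval -0.50 to 0.38). Cdh1 varied widely within both groups, over 2.21 to 10.1 RPKM in lox and 3.77 to 11 in Cre alfp. The log2 difference of 0.19 had a 95% interval of -0.77 to 1.16, so a sizeable change in either direction was not detectable. Cldn1 had an interval of similar width, -0.81 to 0.99.

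Whether the deletion acted differently with and without Foxa3 was tested by the difference between these 2 differences. For 2 of the 10 genes it passed, both lower, against 14.4% of all genes in either direction and 6.17% lower. For Ocln it was -1.77 (SE 0.28, limma adjusted p 0.000922), since Ocln was lower in the triple null than in FoxA3 null and higher in Cre alfp than in lox. For Gjb2 it was -1.10 (SE 0.28, limma adjusted p 0.0175). Without lox replicate 1 or lox replicate 2 the Gjb2 value did not pass, at limma adjusted p 0.0554 and at -0.98 with limma adjusted p 0.0528 (the alternatives running from 0.00518 to 0.0554). For F11r the value was 0.48 (95% interval -0.13 to 1.08). Its rise from FoxA3 null to triple null was thus not shown to differ from its change from lox to Cre alfp. The way of deletion and possibly the age at deletion differ between these arms as well and cannot be told apart from the presence of Foxa3.

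**Figure D2:**
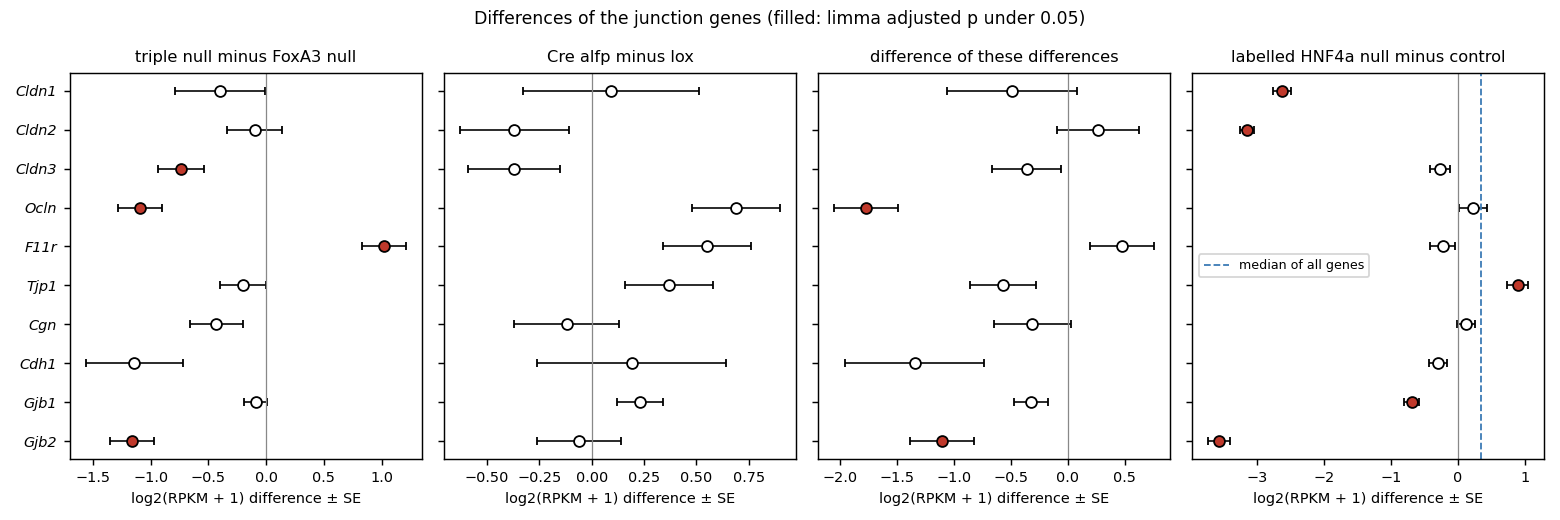
Differences in log2(RPKM + 1) with their standard errors for the 10 genes in 4 comparisons; filled points passed at a limma adjusted p under 0.05, axes differ between panels, and the dashed line is the median of all genes in liver (0.34). Ocln and Gjb2 are filled for triple null minus FoxA3 null and for the difference of differences, and Cldn1, Cldn2 and Gjb2 stand far left in liver.

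Comparisons of FoxA3-deficient with lox or Cre alfp libraries cross a split in which many genes part the libraries. The 7 libraries with Foxa3 and the 8 without it did not overlap for 11.1% of the 11500 tested genes, and for 1 of the 10 junction genes, Gjb1. Each side holds 1 Foxa3 genotype only, so genotype and batch cannot be told apart. Gjb1 was 262, 293 and 247 RPKM in lox, 348, 332, 290 and 285 in Cre alfp, 430, 436, 398 and 422 in FoxA3 null and 374, 355, 432 and 423 in the triple null. All 8 values of the FoxA3-deficient side were thus above all 7 others.

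Across that split, FoxA3 null against lox passed for 5 of the 10 genes, against 34.8% of all. Relative to the median of all genes (0.10), Ocln, Tjp1, F11r and Gjb1 were 0.74, 0.55, 0.50 and 0.56 higher on the log2 scale and Cgn fell by 1.01. The calls of Tjp1 and F11r were lost without lox replicate 1 (limma adjusted p 0.0981 and 0.132), as was that of Cgn (0.0767), leaving 2 genes, Ocln and Gjb1. Tjp1 had limma adjusted p-values of 0.0729, 0.0785 and 0.0649 without lox replicate 2, FoxA3 null replicate 1 and FoxA3 null replicate 2. F11r did not pass without lox replicate 2 (0.139) or FoxA3 null replicate 2, 3 or 4 (0.0806, 0.0626 and 0.0684), nor under median scaling (0.0775). Over all alternatives the limma adjusted p ran from 0.00982 to 0.0981 for Tjp1, from 0.0116 to 0.139 for F11r and from 0.00622 to 0.0767 for Cgn.

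Cgn was low on the FoxA3-deficient side, at 2.98 to 4.85 RPKM in FoxA3 null and 2.3 to 3.3 in the triple null, beside 5.65 to 11.5 in lox and 4.49 to 10.7 in Cre alfp. Triple null against lox passed for 6 of 10 genes where 42.5% of all did: Cdh1, Cldn3, Cgn and Gjb2 were lower, by -1.59, -0.92, -1.47 and -0.76 after taking off the all-gene median of 0.13, with F11r and Gjb1 higher, by 1.50 and 0.43. Triple null against Cre alfp passed for 7 of 10 where 41.2% of all did: Cdh1, Ocln, Cgn and Gjb2 were lower (-1.78, -1.06, -1.34 and -0.69) and Cldn2, F11r and Gjb1 higher (0.84, 0.96 and 0.21). These 2 comparisons share the triple null libraries, and the comparisons with lox share the lox libraries. In triple null against lox, Ocln overlapped and did not pass (log2 difference -0.25, or -0.38 relative to all genes, limma adjusted p 0.354). Leaving out single libraries ended the call of Cdh1 against lox (limma adjusted p 0.0944 without lox replicate 1 and 0.0768 without replicate 2), of Gjb2 against lox (0.128 without lox replicate 3 and 0.0697 without triple null replicate 2) and of Gjb2 against Cre alfp (0.0522 to 0.0859 without Cre alfp replicate 1 or 4 or triple null replicate 2 or 4). Gjb1 against Cre alfp was lost without Cre alfp replicate 3 or triple null replicate 3 or 4 (0.0515 to 0.0549) and under median scaling (0.126). Over all alternatives these adjusted p-values ran from 0.00239 to 0.0944 and from 0.00704 to 0.128 for Cdh1 and Gjb2 against lox, and from 0.00589 to 0.0859 and from 0.00666 to 0.126 for Gjb2 and Gjb1 against Cre alfp.

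In liver, the libraries labelled HNF4a null were set against control. Gjb2, Cldn2 and Cldn1 fell to small fractions of their control level, Gjb1 fell less, and Tjp1 rose. Over the 12434 genes tested in liver the median log2 difference was 0.34. Values here are given relative to it, with limma adjusted p-values of the differences themselves. By these, 5 of 10 genes passed, 1 higher and 4 lower, where 52.8% of all genes passed. At least 2-fold lower were 3 of the 10, beside 740 of all 12434 tested genes (14.5% were at least 2-fold changed in either direction). Because Cldn1 and Cldn2 were tested only through their high control values, this count is a description.

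Cldn1 was 7.38 and 8.51 RPKM in control and 0.316, 0.529, 0.566 and 0.378 RPKM in those labelled HNF4a null. The control mean was 17.8 times higher (log2 difference -2.97 relative to all genes). Cldn2 fell from 11.3 and 12.3 RPKM to 0.538, 0.386, 0.406 and 0.433 RPKM, with a control mean 26.8 times higher (relative log2 difference -3.49). Since the minimum level admitted both through their controls, the p-values given are those of the fit with no minimum, where limma adjusted p was 0.000377 for Cldn1 and 0.000136 for Cldn2. For both claudins each of the 4 libraries was under 1 RPKM and far below control. The authors' deposited table, on a scale without the added 1, lists them at -4.57 and -5.64. Cldn3 was 23.5 and 20.9 RPKM in control and 18.4, 21.7, 14.6 and 18.6 RPKM in the null-labelled group. Its groups overlapped, and its log2 difference of -0.27 (-0.61 relative to all genes) did not pass (limma adjusted p 0.173). After median scaling of the libraries it was -0.54 and passed (limma adjusted p 0.0242), the only alternative that changed its call. The authors' deposited table lists Cldn3 at -0.70 with an adjusted p of 8.97e-07. The claudin makeup thus shifted, with Cldn3 at 50 and 55.8% of the summed RPKM of the 3 claudins in control and at 93.8 to 95.9% of it in the null-labelled group. The sum itself was 41.7 and 42.1 RPKM in control and 15.6 to 22.6 RPKM in the others.

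Ocln, at 9.72 and 7 RPKM in control and 7.5 to 12.3 RPKM in the null-labelled group, and F11r, at 21.1 and 30.5 against 18.7 to 26.6 RPKM, overlapped and did not pass. Tjp1 rose from 9.82 and 13.9 RPKM to 23.6, 21.5, 25.8 and 19.5 RPKM. All 4 libraries were above both controls (0.55 relative to all genes, SE 0.16, limma adjusted p 0.0048). Its partner in the junction plaque, Cgn, was 2.39 and 3.59 RPKM in control and 3.11 to 3.47 in the others, which overlap (relative log2 difference -0.22). Cdh1 was 9.8 and 10.6 RPKM in control and 7.88, 9.72, 6.67 and 8.4 RPKM in the null-labelled group. Each of the latter was lower, but the log2 difference of -0.30 (-0.64 relative to all genes) did not pass as deposited (limma adjusted p 0.118). It passed under median scaling (0.0154), under quantile normalization (0.0226) and without the library labelled HNF4a null GGCTAC (0.0491). Over all alternatives the adjusted p of Cdh1 ran from 0.0154 to 0.358. The authors' deposited table lists Cdh1 at -0.76 with an adjusted p of 3.32e-10, and F11r at -0.51 with 2.6e-06.

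Gjb2 was 62.6 and 52.8 RPKM in control and 3.19, 4.85, 3.55 and 4.33 RPKM in those labelled HNF4a null. The control mean was 14.5 times higher (relative log2 difference -3.90, SE 0.16, limma adjusted p 1.17e-05). Gjb1 fell less, from 236 and 226 RPKM to 150, 125, 152 and 147 RPKM, without overlap (-1.02, SE 0.11, limma adjusted p 0.00279). Gjb2 was 18.9 and 21% of the summed RPKM of both connexins in control and 2.09 to 3.75% in the other libraries. In the same libraries the summed RPKM of hepatocyte markers was 17604 to 22344 against 29204 and 29276 in control, carried by Alb (5883 to 7388 against 16213 to 16386 RPKM) and Ttr (means of 229 against 2991). Of the 9 markers, Alb, Ttr and Serpina1a (means of 3.34 against 821 RPKM) passed lower and Cps1 (1635 against 797 RPKM) and Ass1 (133 against 90.6) higher. Fgb, Apoa1, Cyp2e1 and Hpd did not pass, at log2 differences of 0.83, 0.42, 0.14 and 0.02, and the median over the 9 was 0.14, or -0.20 relative to all genes. In the fit with no minimum Alb and Ass1 did not pass (limma adjusted p 0.0719 and 0.118). The summed RPKM of cholangiocyte markers was 121 to 219 against 17.9 and 18.8, mostly Spp1 at 101 to 198 RPKM. Krt19 was 0.844 to 1.9 RPKM there and Epcam 1.17 to 3.28, against 0.462 to 0.464 and 0.305 to 0.507 in control. Of 11 listed cholangiocyte markers 7 were tested and 6 passed higher, but Sox9, Epcam and Krt19 met the minimum level only through the null-labelled group, and 41.1% of all tested genes were higher, and 3 of the 6 passed in the fit with no minimum, so this count is a description. Cholangiocytes carry Cdh1, Tjp1 and claudins too, and their part in these values was not tested.

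**Figure D3:**
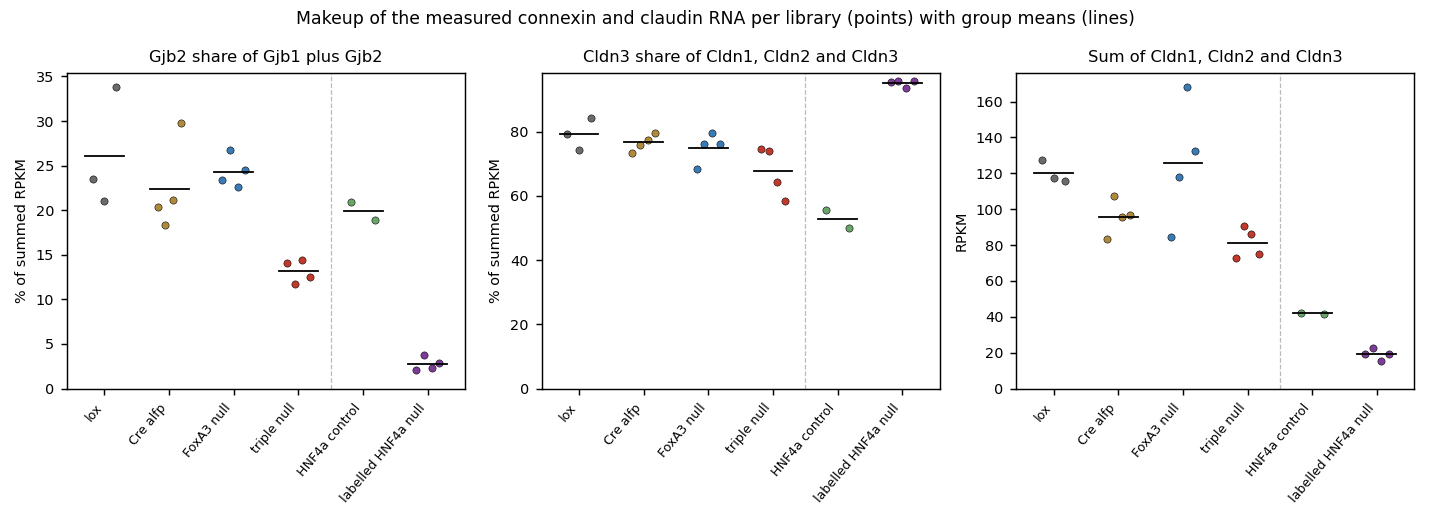
Share of Gjb2 in the summed connexin RPKM, share of Cldn3 in the summed claudin RPKM, and that claudin sum, per library (points) with the group mean (line). The Gjb2 share is 11.8 to 14.4% in the triple null and 2.09 to 3.75% in the null-labelled liver group, where the Cldn3 share is 93.8 to 95.9%.

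The order of levels over the 6 groups differed between genes. For Cldn1 and Cldn2 the libraries labelled HNF4a null were last and did not overlap with the next group, while the neighbours among the other 5 groups overlapped throughout. For Ocln the order ran from the libraries labelled HNF4a null (9.95 RPKM) through HNF4a control (8.36), FoxA3 null (6.64), Cre alfp (5.8) and lox (3.31) to the triple null (2.62), with a gap between neighbours only from Cre alfp to lox. F11r was highest in the triple null (92.4 RPKM) with no overlap with the next group, FoxA3 null (45). Tjp1 was highest in the libraries labelled HNF4a null (22.6 RPKM) and in HNF4a control (11.8), each apart from the next, and 2.77 to 5.04 RPKM on average in the hepatocyte groups. Cdh1 was highest in HNF4a control (10.2 RPKM) and lowest in the triple null (1.53), and of neighbouring groups in this order only the 2 liver groups were apart. Liver and hepatocyte libraries also differ in the RNA of endothelial markers, which summed to 151 to 224 RPKM in liver and to 8.53 to 81.4 RPKM in hepatocytes. The part of other cells in this order of levels was not tested.

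Other genes of the same structures were taken from lists, chosen with earlier results of these data known. In triple null against FoxA3 null, 17.4% of all tested genes were higher and 12.3% lower, and the list counts are descriptions beside these shares. Of 13 tested tight junction genes 6 were higher and 1 lower, the scaffold Magi1 (log2 difference -0.43). Ildr2 and Cldn14 rose most, from 3.3 ± 1.41 to 12.5 ± 3.14 RPKM and from 11.1 ± 2.94 to 36.4 ± 7.29 RPKM (SD, n = 4 each; log2 differences 1.68 and 1.65, limma adjusted p 0.000723 and 9.95e-05), followed by Csda (0.89). Ildr2 belongs to the angulin family of tricellular junctions and Cldn14 is a claudin. Adherens junction genes had 5 higher and 3 lower of 13: Cdh2 (N-cadherin, the other classical cadherin of hepatocytes) fell from 14.9 ± 4.11 to 6.85 ± 1.64 RPKM (log2 difference -1.01), and Jup (plakoglobin) and the nectin Pvrl2 rose by 0.97 and 0.59.

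Desmosome and keratin genes had 4 higher and 3 lower of 10 in that comparison. Ppl (periplakin) rose from 3.46 ± 1.92 to 19.9 ± 4.54 RPKM (log2 difference 2.31, limma adjusted p 3.38e-05), Dsp (desmoplakin) fell from 6.57 ± 2.77 to 1.3 ± 0.495 RPKM (-1.68, limma adjusted p 3.25e-05), and Krt8 rose by 1.18. Integrins and other adhesion genes had 5 lower of 11 and none higher, led by the syndecan Sdc2 (-1.39), Ceacam1, a canalicular membrane protein (-1.23), and the integrin subunit Itgb1 (-0.68). Endothelial markers, 5 of 9 tested lower (3 of these 5 in the fit with no minimum), moved with these, and Sdc2 and Itgb1 are not particular to hepatocytes; their part was not tested. Of 16 polarity genes Inadl (0.60) was higher and Dlg1 (-0.62) lower, and the 1 tested gene among 12 other gap junction genes did not pass. Medians over the tested genes of these 5 lists with 5 or more tested genes were 0.19, 0.27, 0.02, -0.37 and 0.09 in the order given (tight junction, adherens junction, desmosome, adhesion, polarity), beside 0.05 over all genes. Of the transcriptional repressors of E-cadherin, 2 of 6 reached the minimum level, and Snai2 was lower, at 0.15 against 2.08 RPKM (log2 difference -1.38, limma adjusted p 0.000378). Stellate and fibroblast markers summed to 6.5 to 23.5 RPKM in the triple null and 25 to 34.3 RPKM in FoxA3 null, and their part in the Snai2 value was not tested. In the fit with no minimum, Pvrl3 and Itga1, both among the lower genes of these lists, did not pass (limma adjusted p 0.0581 and 0.0791), and the other called genes of the junction lists did. Magi1, Inadl, Snai2, Pvrl3 and Itga1 lie under the level for naming or were picked after their values were seen.

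Cre alfp against lox gave few calls in these lists, as among all genes, of which 5.46% passed. Of the tight junction genes 1 was higher, Marveld2 (tricellulin, 0.65), and 1 lower, Csda (-0.56; limma adjusted p 0.0629, not passing, in the fit with no minimum). Of the other lists, Camsap3 (0.47), Ppl (1.71), Perp (0.45) and Sdc4 (0.52) were higher. For Ppl the means were 1.92 ± 0.843 RPKM over 3 lox and 8.49 ± 1.94 RPKM over 4 Cre alfp libraries (SD, limma adjusted p 0.00466). The medians of the 5 lists were 0.13, 0.25, 0.05, -0.09 and 0.03, beside 0.02 over all genes.

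In the libraries labelled HNF4a null, 4 tight junction genes passed in each direction of 15 tested. Counts are on the deposited scale, where the median of all genes is itself 0.34 higher and 41.1% of all tested genes were higher and 11.7% lower. Median scaling brings the calls over all genes from 5110 higher and 1459 lower to 2274 and 2115; list counts under it were not computed. Cldn14 was 0.455 ± 0.391 RPKM (n = 4) against 10.1 ± 2.51 in control (n = 2), and Mpdz, a multi-PDZ scaffold, 1.86 ± 0.403 against 18.6 ± 2.65 RPKM, at relative log2 differences of -3.28 and -3.12. Cldn14, like Cldn1 and Cldn2, met the minimum level only through the controls (limma adjusted p 0.00255 in the fit with no minimum). Csda rose (0.74). Among desmosome genes, 6 higher and 2 lower of 10, Perp, a membrane protein of desmosomes, fell from 42.3 ± 4.85 to 1.22 ± 0.391 RPKM (relative -4.63, limma adjusted p 8.28e-06), while Ppl and Krt18 rose (1.25 and 0.69). Adherens junction genes had 3 higher and 4 lower of 12, with the nectins Pvrl2 and Pvrl3 lower (-1.17 and -0.99) and Ctnna1 (alpha-catenin) higher (0.41). The higher genes include Plekha7, which met the minimum only through the null-labelled group.

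Polarity genes had 9 higher and 1 lower, Prkcz, of 15, beside 41.1% of all tested genes higher and 11.7% lower. The list median was 0.18 above that of all genes. Inadl, Mark2 and Llgl2 stood at relative 0.97, 0.94 and 0.56. In the fit with no minimum, 6 of the 9 higher genes passed and the lower one did not. Those lost were Llgl2 (limma adjusted p 0.103), Prkci (0.0878), Scrib (0.0996) and Prkcz (0.0677). Adhesion genes had 6 higher and 3 lower of 14, beside the same all-gene shares, with Ceacam1 and Icam1 lower (-2.24 and -1.21) and Sdc1 higher (0.67). Without the minimum 5 of the higher and 2 of the lower adhesion genes passed, and 5 of the 6 higher desmosome genes. Of 4 tested other gap junction genes the connexin Gja1 and the pannexin Panx1 passed higher (relative 0.49 and 1.05). Both met the minimum only through the null-labelled group, as did the polarity gene Llgl1 and the integrin subunit Itgb3. In the fit with no minimum Gja1 had a limma adjusted p of 0.0393 and Panx1 did not pass (0.0567). Plekha7, Gja1, Panx1, Llgl1, Itgb3, Prkci, Scrib and Prkcz lie under the level for naming or were picked after their values were seen. Of 2 tested repressors of E-cadherin 1 was higher, Zeb1 (0.15). Relative to all genes, list medians were -0.30, -0.48, 0.07, 0.06 and 0.18 for tight junction, adherens junction, desmosome, adhesion and polarity genes. Relative to all genes, the medians of endothelial and stellate markers in liver were -0.03 and 0.04.

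**Figure D4:**
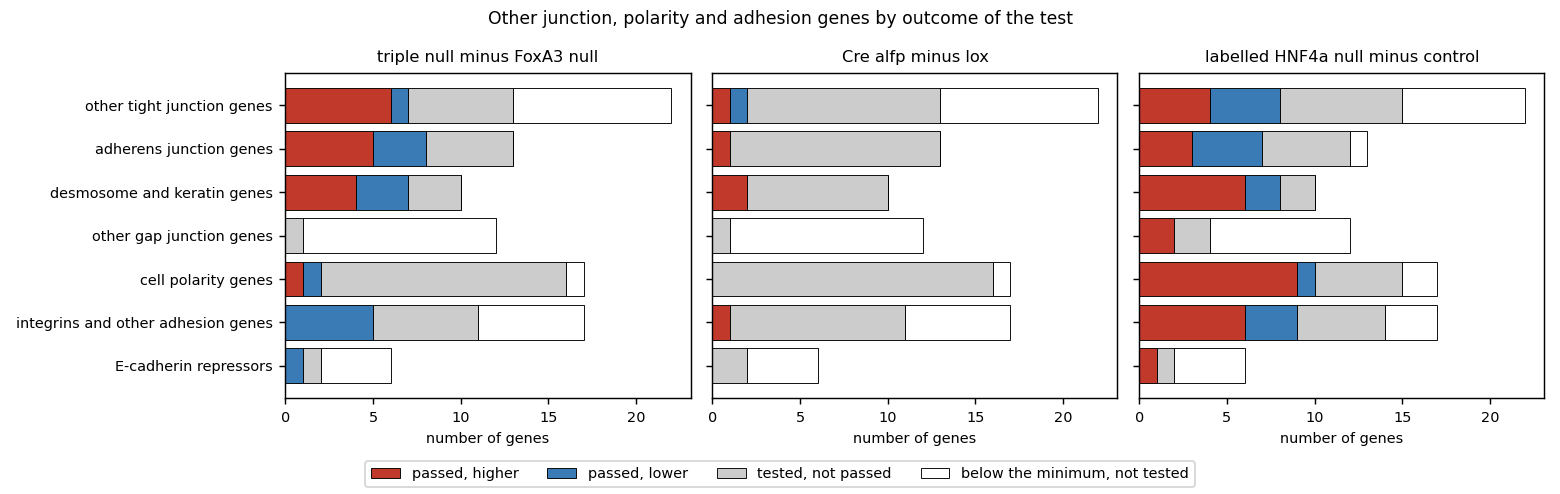
Number of genes per list by outcome of the test in 3 comparisons; white counts genes under the minimum level. In triple null against FoxA3 null no adhesion gene is higher and 5 are lower, and in the libraries labelled HNF4a null 9 of 15 tested polarity genes are higher, where 41.1% of all tested genes are (list median 0.18 relative to all genes).

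The study also set adult hepatocytes against earlier stages, through tables of the authors' own tests; the libraries behind their adult reference are not given in the sources used here. In the authors' deposited table of hepatoblasts over adult hepatocytes, 8 of the 10 genes were lower at an adjusted p under 0.05, where 37.9% of all 13473 genes with an adjusted p were lower, with Cldn2 at -4.29, Gjb1 at -4.20, Gjb2 at -4.10, Cldn3 at -3.82, Cldn1 at -3.38, Ocln at -2.33, F11r at -1.38 and Cgn at -1.05. Tjp1 was higher, at 2.52, and Cdh1 was listed at -0.69 with an adjusted p of 0.411. Tjp1 thus parted from the other tight junction genes. For newborn over adult hepatocytes, the authors' deposited table has 31.6% of its 12176 genes with an adjusted p higher, and 6 of the 10 genes: Cdh1 (3.02), Cldn1 (2.22), Tjp1 (1.48), Ocln (1.26), Cldn2 (1.23) and F11r (1.16). Gjb1 was lower (-0.40), with Cgn (0.60), Gjb2 (0.09) and Cldn3 (-0.01) not past the threshold. Beside these stand the authors' deposited table for HNF4a, with Cldn1 at -4.57, Cldn2 at -5.64, Gjb2 at -4.28, Gjb1 at -1.11, Cdh1 at -0.76, Cldn3 at -0.70, Tjp1 at 0.54, F11r at -0.51, Cgn at -0.29 and Ocln at -0.08 (the last 2 not past the threshold), and the authors' deposited table of triple null over FoxA3 null, with Cdh1 at -1.77, Ocln at -1.27, Gjb2 at -1.22, Cldn3 at -0.85, F11r at 0.82 and Cgn at -0.58, and with Cldn1, Tjp1, Gjb1 and Cldn2 (-0.59, -0.23, -0.15 and -0.14) not past the threshold. Whether these tables share reference libraries with the stage tables was not tested.

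**Figure D5:**
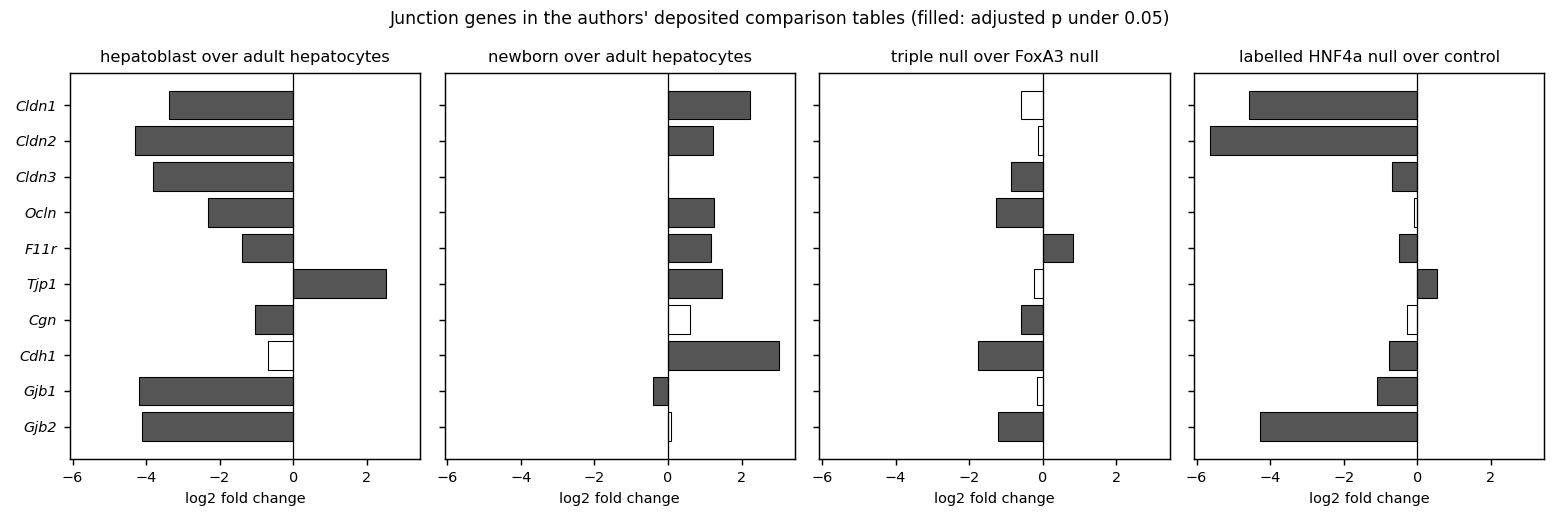
Log2 fold changes of the 10 genes in 4 of the authors' deposited tables (bars; filled at an adjusted p under 0.05). Hepatoblasts are lower for 8 genes, where 37.9% of that table's genes are, newborn cells higher for 6, where 31.6% are, and the fourth table, for the libraries labelled HNF4a null, has its longest bars at Cldn1, Cldn2 and Gjb2.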

How the data were processed

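RNA libraries of mouse hepatocytes (15) and liver (6) were used. The authors deposited 1 matrix of RPKM values; Cufflinks 2.2.1, SAMtools, DESeq2 and build mm9 are named in the submitters' processing notes, and the aligner and strand setting are not given in the sources used here. Columns were matched to samples by name, and 9 columns that matched none were not used. The liver columns carry barcodes in place of replicate numbers. The deposited comparison tables hold the authors' log2 fold changes and p-values.

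For testing, log2(RPKM + 1) went into limma 3.58.1 under R 4.3.3 (lmFit, eBayes with a trend), in 1 fit of 15 hepatocyte libraries (RPKM of at least 1 in at least 3) and 1 of 6 liver libraries (in at least 2), and the procedure was tested on simulated data. The labels do not say that libraries come from separate animals, so p-values measure the spread between these libraries. No 2 replicates had more than 0.0057% identical values among those above 0. All 10 members are reported; from each other list, the 3 genes with the largest difference are named among those that passed and averaged 5 RPKM or more in 1 of the groups. Members and lists were chosen with earlier results of these data known. Alternatives were a pseudocount of 0.1, no minimum level, median scaling, quantile normalization, no trend, a minimum log2 difference of 1, only the groups compared, a replicate block, and leaving out each library. The chromatin samples and peak list were not analysed here.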

Additional observations from a re-analysis of the deposited data

Results flagged for a closer look

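For 2 genes, the difference between triple null and FoxA3 null was not that between Cre alfp and lox, by limma's test of the difference between the differences. For Ocln it was -1.77 on the log2 scale, and for Gjb2 it was -1.10, a call lost without lox replicate 1 or 2 (limma adjusted p 0.0554 and 0.0528). The presence of Foxa3 and the way of deletion cannot be told apart here. Ocln was lower in all 4 triple null libraries than in any FoxA3 null library and higher in all 4 Cre alfp libraries than in any lox library. Gjb2 was lower in all 4 triple null libraries and overlapped between Cre alfp and lox.

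Single libraries of F11r lay apart from their groups by Dixon's criterion, which chance meets in about 1 of 20 groups. It was applied to 40 groups of 4 libraries (each gene in each such group) and met in 2 of them, about the number that chance gives. The highest Cre alfp library, at 60.5 RPKM, left a gap of 0.883 of its group's range, and the lowest FoxA3 null library, at 34.7 RPKM, a gap of 0.853. F11r was higher in the triple null than in FoxA3 null under each alternative run, with log2 differences of 0.90 to 1.08.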

How the results depend on the processing

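With a minimum log2 difference of 1, genes passing numbered 933 for triple null against FoxA3 null, 274 for Cre alfp against lox, 784 for the difference between these, 1556 and 1184 for triple null against lox and against Cre alfp, 827 for FoxA3 null against lox and 1807 in liver; of the 10 junction genes, 3 passed against lox, 3 against Cre alfp, 0 in FoxA3 null against lox and 3 in liver. In limma without that minimum 5 passed in FoxA3 null against lox, and 3 without the filter on low levels. With only the 2 groups compared, Cre alfp against lox gave 380 genes. Leaving out 1 library at a time gave 278 to 688 genes for Cre alfp against lox (lowest without lox replicate 1; 369 without lox replicate 2, 324 and 403 without Cre alfp replicates 1 and 3), 1043 to 1853 genes and 1 to 2 junction genes for the difference between differences (1043 and 1 without lox replicate 1, 1 without lox replicate 2), 2368 to 4540 genes and 2 to 7 junction genes for FoxA3 null against lox (2408 and 2368 genes without lox replicates 1 and 2), and 4030 to 6119 genes and 3 to 6 junction genes in liver. The 3 in liver arise without either control, when Cldn1 and Cldn2 no longer reach the minimum level in 2 libraries and are not tested; the lone control is then assumed to vary like the other group. Without FoxA3 null replicate 2, 3 junction genes passed against lox.

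Over 70 results for single genes and 1456 alternatives no direction reversed past the threshold, 48 calls were lost and 22 gained, and 45 results kept every call. Cdh1 in triple null against FoxA3 null also passed with a pseudocount of 0.1 (-1.51, limma adjusted p 0.0406), with only the 2 groups compared (0.0354) and without lox replicate 1, lox replicate 3 or Cre alfp replicate 4 (0.0463, 0.0232 and 0.0457), its alternatives running from 0.0111 to 0.128. Median scaling moved the share of lower genes among those passing from 22.2% to 48.2% in liver, from 34.9% to 48.3% and 46.8% for triple null against lox and Cre alfp, and from 37.5% to 49.4% for FoxA3 null against lox.

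Same-numbered hepatocyte libraries did not deviate together (correlations -0.36 to 0.116), so the numbers do not pair them. The replicate block changed 1 call among the junction genes, Tjp1 in FoxA3 null against lox (0.66, limma adjusted p 0.061, from 0.028). No paired analysis was possible in liver because its columns carry no replicate numbers. Depth is known only relative to other libraries, and values under 1 RPKM in liver, the shallowest set, are the least certain.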

Other observations

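Within the hepatocyte groups, some junction genes varied together from library to library. Deviations from the group means over the 15 libraries, on the log2 scale, correlated at 0.88 between Cdh1 and Cldn1, 0.85 between Cldn1 and Cgn and 0.73 between Cdh1 and Cgn, and at -0.73 between Cldn1 and Gjb2 and -0.76 between Cldn2 and Cgn (Pearson; a description, with no test, over libraries that share groups and depth). In lox, replicate 3 was lowest for Cdh1 (2.21 RPKM), Cldn1 (5.18) and Cgn (5.65) and highest for Gjb2 (126), and in Cre alfp replicate 4 was lowest for the same 3 genes (3.77, 6.12 and 4.49) and highest for Gjb2 (121). The other groups were not like this throughout. In FoxA3 null, replicate 1 was lowest for the same 3 genes (1.54, 5.49 and 2.98 RPKM) but Gjb2 was highest in replicate 2 (159, against 131 in replicate 1). In the triple null, replicate 1 was lowest for Cdh1 (1.09) and Cldn1 (5.77) but highest for Cgn (3.3), and Gjb2 was highest in replicate 3 (72.9). These 4 genes were picked after their values were seen.

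Hepatocytes differ along the liver lobule, and E-cadherin is known as a periportal protein. Zone markers were listed after the values had been seen. In the triple null, 3 of 6 pericentral genes were higher than in FoxA3 null (Oat by 2.75, Lgr5 by 1.13 and Cyp2e1 by 0.79 on the log2 scale, the last not passing in the fit with no minimum, at a limma adjusted p of 0.112) and 1 of 6 periportal genes was lower (Cyp2f2, -1.16), beside 17.4% of all tested genes higher and 12.3% lower. In the libraries labelled HNF4a null, pericentral genes had 3 higher and 1 lower of 6 and periportal genes 1 in each direction of 6, beside 41.1% of all tested genes higher and 11.7% lower. Deviations of Cldn2 correlated at 0.78 with Oat, 0.69 with Glul, 0.60 with Cyp2e1 and 0.59 with Cyp1a2. With periportal genes they correlated at -0.51 with Hal, -0.33 with Cyp2f2, -0.19 with Sds, -0.12 with Gls2 and 0.39 with Pck1. Deviations of other members also went with pericentral genes, in either direction, such as Cgn at -0.63 with Oat and Tjp1 at 0.68 with Glul. Those of Cdh1 correlated with periportal genes in both directions, at 0.44 with Hal, 0.25 with Cyp2f2, -0.01 with Sds, -0.18 with Gls2 and -0.28 with Pck1, and with pericentral genes at -0.35 with Glul, -0.28 with Oat, -0.41 with Cyp2e1 and -0.26 with Cyp1a2. The part of the zones in the values of the junction genes was not tested.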
